A study of Homo sapiens with 8 samples.

Results

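The mitochondrial ribosomal protein genes are the protein-coding genes whose symbol starts with MRPL or MRPS in GENCODE release 44 on GRCh38. This rule, which uses no measured value, found 78 members among the 60624 genes in the count tables. They were measured by RNA sequencing in A549, an established human lung adenocarcinoma cell line, in 8 libraries of polyadenylated RNA. The 4 groups were untreated cells, cells given 0.5 μM indisulam, cells given 5 μM SPHINX31, and cells given both (the combination), each for 24 h. These doses and times are the ones the paper gives for A549. The sample labels instead give 2 μM indisulam and 18 h for all libraries, the untreated ones included. The paper gives that dose and time for a separate experiment in a pancreatic cancer cell line. Which of them holds for these libraries is not stated. Indisulam is a molecular glue that leads to degradation of the splicing factor RBM39, and SPHINX31 inhibits the kinase SRPK1, which phosphorylates splicing factors. The paper used these libraries to ask whether added splicing errors could explain the synergy of both drugs. It reported more skipped exons in the combination than the single treatments summed to. Counts per gene, as used here, do not measure splicing errors. Each group holds 2 technical replicates of 1 cell line, so that the p-values below measure only the spread between such libraries and not between independent treatments.

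The mitochondrial ribosome translates the few messages encoded by mitochondrial DNA, all of them for the machinery of oxidative phosphorylation. Its RNAs are made in the mitochondrion, but all of its proteins are encoded in the nucleus, translated in the cytosol and imported. Some of these proteins have a counterpart in the bacterial ribosome and others are found only in mitochondria. By current nomenclature 51 members belong to the large subunit, which forms peptide bonds, and 26 to the small subunit, which reads the message. MRPS30 and MRPS18A are named after the small subunit but sit in the large one, and MRPS36 is no longer counted as a ribosomal protein.

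The libraries held between 51727369 and 63186989 counts on genes. A gene entered the test if it passed a filter on low counts, which 18661 genes did. MRPL53, with 0 to 2 counts per library, was the only member that did not, leaving 77. The cells carried the markers of A549: KRT8, KRT18, ALDH1A1, AKR1B10, AKR1C1 and NQO1 were between 1493 and 7059 CPM in every library (CPM is the count scaled by a library size adjusted with the TMM method). CDH1 and EPCAM were lower. Among markers of other cell types, CD3E (T cells) and SFTPB (alveolar cells) had no count in any library, and PTPRC, VWF and DCN were at most 0.192 CPM. SFTPC, a surfactant gene, was between 0.101 and 0.310 CPM, PECAM1 of endothelial cells between 1.45 and 2.36 CPM and COL1A1 of fibroblasts between 3.23 and 4.65 CPM, and their part in the results was not tested. RBM39 mRNA was 154 and 157 CPM in untreated cells and 361 and 360 CPM with indisulam, a log2 fold change of 1.22 (adjusted p = 5.41e-09, edgeR). Neither drug was given to lower the mRNA of its target, so that these counts do not check the loss of the protein.

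In untreated cells most members were expressed well above a typical gene. Their median level was 16.7 CPM per kilobase of merged exon, against 4.07 for the 14010 tested protein-coding genes, 32.0 for nuclear subunits of oxidative phosphorylation and 176 for proteins of the cytosolic ribosome. MRPL51 was highest, with 120 ± 1.35 CPM per kilobase (SD, n = 2). It was followed by MRPS35 with 100.4 ± 0.249 and MRPS34 with 84.1 ± 3.46, and the gaps between them were larger than their spread. All 3 are mitochondria-specific subunits, but the order rests on the length used: per kilobase of the longest transcript, MRPL24 (115 CPM) lay above MRPS35 (106) and MRPL3 (103.9) above MRPS34 (88.4), and MRPL24 and MRPL3 have bacterial counterparts. The lowest per merged exon were MRPL38 (0.431 CPM per kilobase), MRPS24 (0.0379) and MRPL53 (0.0245). MRPS24 had 5 to 14 counts per library.

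The lowest values went with overlapping annotation. In 7 members, at least 50% of the canonical transcript lies under exons of another gene on the same strand. They were MRPL12 (69.5%), MRPS28 (56.2%), MRPL2 (52.1%), MRPL46 (73.4%), MRPL38 (94.3%), MRPS24 (90.9%) and MRPL53 (99.2%). In MRPS24 the other gene is the readthrough gene URGCP-MRPS24, and in MRPL53 it is CCDC142. The median level of these 7 was 0.527 CPM per kilobase, compared with 18.6 for the other 71. HTSeq, the counting tool named in the submitters' processing notes, by default gives no count for a read that fits more than 1 gene. Levels of these 7 members are therefore uncertain. Under that default, their fold changes would rest on the reads outside the shared exons. This was not checked, since the annotation used for counting is not given. MRPL12, MRPL2 and MRPS24 encode subunits with a bacterial counterpart, and their low counts were not read as low expression.

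With indisulam, more members rose than fell, and most changes were small. 29 members (37.7% of 77) rose and 8 (10.4%) fell at an adjusted p under 0.05 in edgeR's quasi-likelihood test, with p-values adjusted over all tested genes. The background was 20.1% of all tested genes higher and 23.5% lower, or 43.7% in either direction, so that the 48.1% of members that passed in either direction lay near the background. The difference in direction between the members and all genes was not tested. Leaving out 1 library at a time gave 21 to 30 members higher and 3 to 11 lower. The count was 25 higher and 3 lower without untreated replicate 2, 21 higher and 5 lower without untreated replicate 1, 28 higher and 5 lower without indisulam replicate 1, and 23 higher and 11 lower without indisulam replicate 2. The median member changed by 0.10 on the log2 scale, and the median of all genes by 0.00. No member reached an absolute log2 fold change of 1, which 9.5% of all genes did, and 4 of 77 (5.19%) reached 0.5, as 27.3% of all genes did. Without the members that share at least 50% of their transcript, 27 of 71 rose and 8 fell.

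In the large subunit 21 of 50 tested members rose and 3 fell, and in the small subunit 8 of 26 rose and 5 fell. The difference between the subunits was not tested. Of the 20 tested large subunit members that are specific to mitochondria, 11 rose and 2 fell. Of the 30 with a bacterial counterpart, 10 rose and 1 fell. In the small subunit, 4 of 16 with a bacterial counterpart rose and 2 fell, and 4 of 10 mitochondria-specific members rose and 3 fell.

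MRPL38 encodes a mitochondria-specific protein of the large subunit. It had 1.39 and 1.49 CPM in untreated cells, 3.22 and 2.26 with indisulam, 0.923 and 0.991 with SPHINX31, and 3.41 and 2.08 in the combination. All 4 libraries with indisulam were above all 4 without it, but the 2 libraries of each indisulam group differed widely. The log2 fold change with indisulam was 0.93 (SE 0.230, adjusted p = 0.00520). It was 0.65 without indisulam replicate 1, where the adjusted p of 0.0559 no longer passed. The gene has as few as 50 counts in a library and shares 94.3% of its transcript.

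MRPL46, another mitochondria-specific large subunit protein, had 3.66 and 3.09 CPM in untreated cells, 6.02 and 5.61 with indisulam, 3.40 and 3.71 with SPHINX31, and 5.72 and 5.68 in the combination. The libraries with and without indisulam did not overlap. The log2 fold change was 0.79 (SE 0.114, adjusted p = 0.000100), and here too most of the transcript is shared with another gene.

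MRPS6, a small subunit protein with a bacterial counterpart, had 19.8 and 19.5 CPM in untreated cells and 30.7 and 31.1 with indisulam. It had 17.4 and 16.9 CPM with SPHINX31 and 26.8 and 27.1 in the combination. The indisulam libraries were the highest and the SPHINX31 libraries the lowest, and no groups overlapped. The log2 fold change with indisulam was 0.65 (SE 0.0600, adjusted p = 1.90e-06). Exons of another gene cover 33.1% of its transcript on the same strand.

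MRPL1 and MRPL30 are large subunit proteins with bacterial counterparts. MRPL1 rose from 20.3 and 22.7 CPM in untreated cells to 31.4 and 29.3 with indisulam, a log2 change of 0.50 (SE 0.0709, adjusted p = 8.44e-05). MRPL30 rose from 39.2 and 36.3 CPM to 49.1 and 50.8, a log2 change of 0.40 (SE 0.0591, adjusted p = 0.000114). In MRPL1, which shares no exon on its strand, all 4 libraries with indisulam were above 29 CPM and all 4 without it below 23.

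Among the members that fell, MRPS31 changed most. It encodes a small subunit protein found only in mitochondria, and lies at chr13:40729128-40771190 on the minus strand. It had 15.8 and 16.3 CPM in untreated cells, 11.7 and 11.1 with indisulam, 16.3 and 16.3 with SPHINX31, and 8.75 and 9.42 in the combination. The 4 libraries without indisulam lay together, the indisulam libraries below them and the combination libraries lowest. The log2 fold change with indisulam was -0.49 (SE 0.0739, adjusted p = 0.000138). MRPS31 has annotated pseudogenes, which held 10.3% of the counts of MRPS31 and its pseudogenes together (at most 0.454% in any other member), so that its counts carry some uncertainty. The tested pseudogenes MRPS31P4 and MRPS31P5 moved the other way, with MRPS31P4 at 0.518 and 0.486 CPM in untreated cells and 1.46 and 1.28 with indisulam. The part of reads that fit both the gene and a pseudogene was not tested.

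MRPS16 and MRPS10 are conserved proteins of the small subunit. MRPS16 fell from 149 and 148 CPM to 122 and 128 with indisulam, a log2 change of -0.25 (SE 0.0536, adjusted p = 0.00219). MRPS10 fell from 53.8 and 56.3 CPM to 46.9 and 47.5, a log2 change of -0.22 (SE 0.0558, adjusted p = 0.00598). Without untreated replicate 2 the change in MRPS10 was -0.19 and no longer passed (adjusted p = 0.0714).

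The 3 genes named MRPS18 encode relatives of a single bacterial protein that occupy different places in the ribosome, MRPS18A in the large subunit and MRPS18B and MRPS18C in the small one. They did not move together. MRPS18A had 36.4 and 36.7 CPM in untreated cells and 30.4 and 31.4 with indisulam, and fell by 0.24 on the log2 scale (SE 0.0721, adjusted p = 0.0149). Exons of RSPH9 on the other strand cover 60.6% of its transcript, and whether the counting used the strand is not given. MRPS18B had 89.7 and 89.8 CPM and then 74.5 and 78.7, and fell by 0.23 (SE 0.0541, adjusted p = 0.00395). MRPS18C had 18.5 and 18.1 CPM and then 22.4 and 22.5, and rose by 0.29 (SE 0.0654, adjusted p = 0.00271). The call for MRPS18A was lost without indisulam replicate 1 (-0.22, adjusted p = 0.0762), without untreated replicate 1 (adjusted p = 0.0611) and without untreated replicate 2 (adjusted p = 0.0709).

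**Figure D1:**
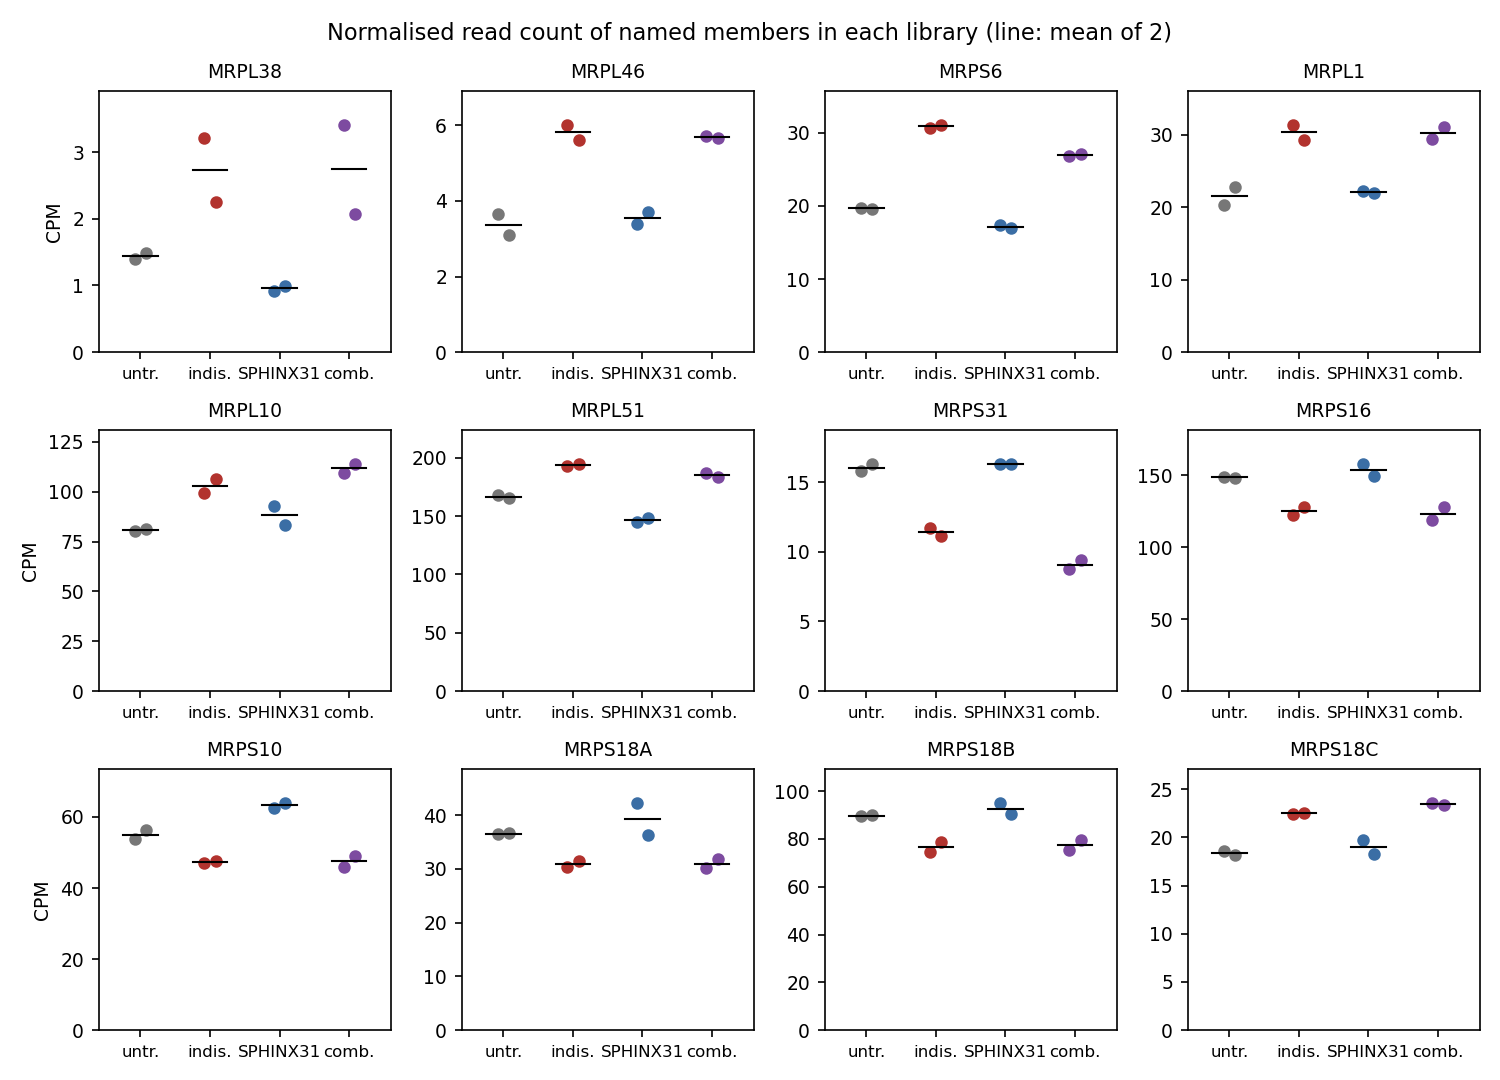
Normalised read count in CPM of 12 named members in each of the 8 libraries. Points are libraries, lines are means of 2, and each axis starts at 0. MRPL38, MRPL46, MRPS6 and MRPL1 were higher in all libraries with indisulam, and MRPS31, MRPS16, MRPS10, MRPS18A and MRPS18B were lower.

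SPHINX31 alone changed few members. 1 rose and 2 fell, 3.90% of 77, where 8.61% of all tested genes passed (4.94% higher and 3.67% lower). MRPS10 rose from 53.8 and 56.3 CPM to 62.5 and 64.0 (log2 fold change 0.20, SE 0.0552, adjusted p = 0.0396). MRPL21, a conserved large subunit protein, fell from 51.5 and 53.4 CPM to 47.1 and 43.9 (-0.20, SE 0.0592, adjusted p = 0.0484). MRPL51 fell from 168 and 165 CPM to 145 and 148 (-0.19, SE 0.0458, adjusted p = 0.0234).

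These 3 calls were fragile. None was left without SPHINX31 replicate 1, untreated replicate 1 or untreated replicate 2, 1 was left without SPHINX31 replicate 2 and 1 with DESeq2, while 9 members (2 higher, 7 lower) passed after a correction for GC content. With scaling by total counts 2 members passed as higher and 1 as lower. The nuclear subunits of oxidative phosphorylation, whose mitochondrial partners this ribosome makes, had 0 genes higher and 16 of 80 lower with SPHINX31. Whether the 2 lists differ was not tested.

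In the combination, 26 members rose and 11 fell compared with untreated cells (48.1% of 77), where 50% of all tested genes passed, 23.8% higher and 26.3% lower. Scaling by total counts gave 31 higher and 7 lower. Without untreated replicate 1 the count was 17 higher and 6 lower, without untreated replicate 2 it was 19 and 7, and without combination replicate 1 it was 23 and 4. MRPL38 (0.93, adjusted p = 0.00427), MRPL46 (0.76), MRPL1 (0.49), MRPL10 (0.47) and MRPS6 (0.46) rose most on the log2 scale. MRPL38 fell short of the threshold without combination replicate 1 (0.54, adjusted p = 0.0867). MRPL10, a large subunit protein at the base of the stalk that binds translation factors, had 80.2 and 81.1 CPM in untreated cells, 99.5 and 106 with indisulam, 92.9 and 83.3 with SPHINX31 and 110 and 114 in the combination, and the combination libraries were highest.

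MRPS31 fell most (-0.82, SE 0.0752, adjusted p = 1.21e-06), a fold of 0.566. MRPS16 (-0.27), MRPS25 (-0.26), MRPS18A (-0.24) and MRPL21 (-0.22) followed. MRPS25, specific to the mitochondrial small subunit, had 56.4 and 60.4 CPM in untreated cells and 50.1 and 47.7 in the combination. MRPS18B fell by 0.21 and MRPS18C rose by 0.36. The calls of MRPS18A, MRPS18B and MRPL21 were each lost when 1 library was left out. MRPS18A fell short without combination replicate 1 (adjusted p = 0.112), untreated replicate 1 (adjusted p = 0.0528) or untreated replicate 2 (adjusted p = 0.0622). MRPS18B fell short without combination replicate 1 (adjusted p = 0.0656) and MRPL21 without untreated replicate 2 (adjusted p = 0.0647).

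Adding SPHINX31 to indisulam changed 1 member. MRPS31 fell further, by 0.33 on the log2 scale (SE 0.0777, adjusted p = 0.0211), which is 1.30% of members against 7.5% of all tested genes (3.17% higher and 4.32% lower). This call was lost without combination replicate 1 (-0.27, adjusted p = 0.136), combination replicate 2 (-0.38, adjusted p = 0.0583) or indisulam replicate 1 (-0.29, adjusted p = 0.148). Over the 77 members the log2 fold changes ran from -0.33 to 0.35, with a median of -0.02.

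Adding indisulam to SPHINX31 uses none of the libraries of the comparison of indisulam with untreated cells. Its fold changes therefore measured the change with indisulam a second time, in the presence of SPHINX31. The calls are not separate, because all 8 libraries in 1 fit gave a shared estimate of the spread. Here 31 members rose and 10 fell (53.2% of 77), where 49.9% of all tested genes passed, 23.4% higher and 26.5% lower. The number that fell was smaller in several settings: it was 6 with RLE size factors, total counts, DESeq2 or a fit of only the 2 groups, and 5 to 7 when 1 library was left out, lowest without combination replicate 1. The number that rose was 30 to 32 in the first 4 of these and 22 to 33 with 1 library left out, lowest without combination replicate 2. The largest changes were higher MRPL38 (1.52, SE 0.249, adjusted p = 0.000220), MRPL46 (0.68), MRPS6 (0.65), MRPL1 (0.45) and MRPL50 (0.45), a mitochondria-specific large subunit protein. MRPL38 was the only member whose log2 change reached 1 in either direction, as it did in 11.3% of all genes. The largest in the other direction were MRPS31 (-0.84, adjusted p = 1.01e-06), MRPS10 (-0.41), MRPS18A (-0.35), MRPS16 (-0.32) and MRPS18B (-0.26).

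Of the 29 members that rose with indisulam alone, 26 also rose here (89.7% of the 29 and 83.9% of the 31). Of the 8 that fell, 6 also fell here (75% of the 8 and 60% of the 10), and none passed in opposite directions. Over all tested genes the shares of the first comparison were 81.1% for genes that rose and 84.9% for genes that fell. The log2 fold changes of both comparisons had a Pearson r of 0.86 over the 77 members and 0.85 over all tested genes, given as a description, since genes are not independent replicates and the libraries come from 1 experiment.

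The 26 members that rose both times were MRPL1, MRPL10, MRPL18, MRPL20, MRPL27, MRPL30, MRPL32, MRPL36, MRPL38, MRPL40, MRPL42, MRPL43, MRPL44, MRPL45, MRPL46, MRPL50, MRPL51 and MRPL52 of the large subunit, and MRPS6, MRPS14, MRPS18C, MRPS21, MRPS22, MRPS27, MRPS33 and MRPS35 of the small subunit. The 6 that fell both times were MRPL37, MRPS10, MRPS16, MRPS18A, MRPS18B and MRPS31.

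**Figure D2:**
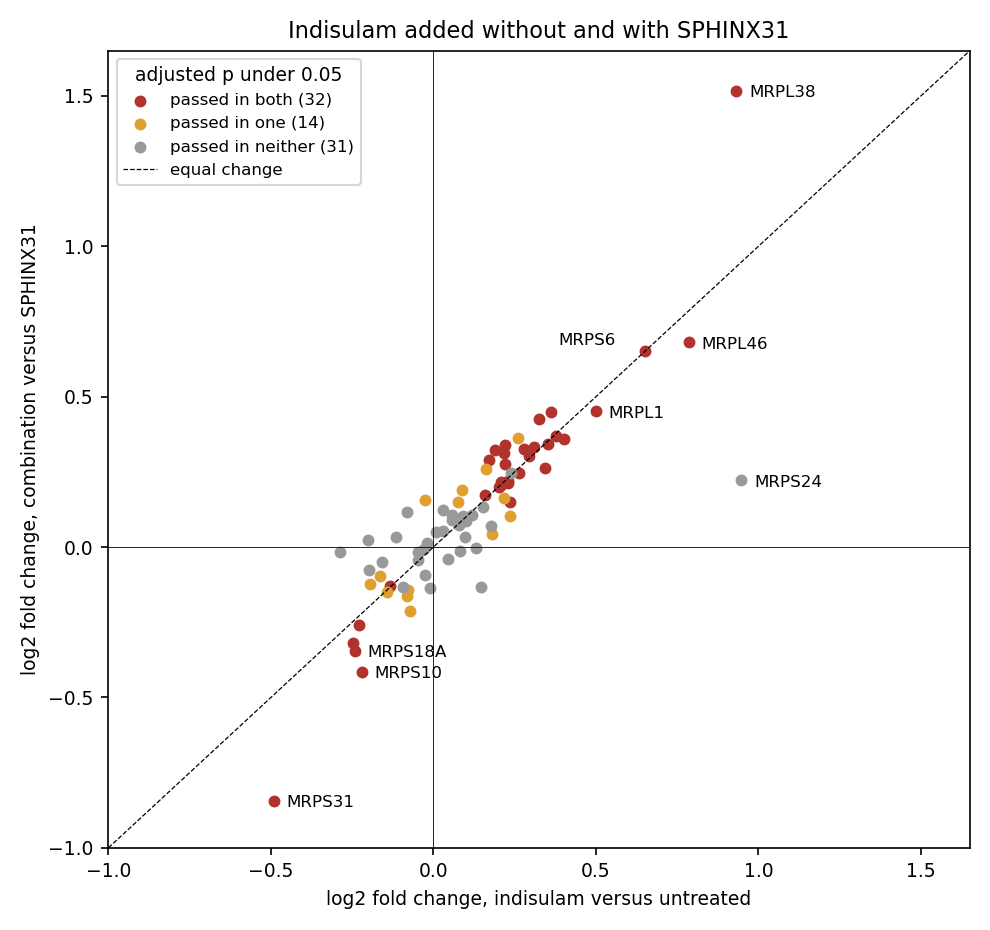
Log2 fold change of the 77 tested members with indisulam versus untreated (x axis) and with the combination versus SPHINX31 (y axis), which share no library. Each point is a gene, coloured by whether it passed an adjusted p under 0.05, and the dashed line marks equal change. The 32 members that passed in both lie on the same side of 0 in both, with MRPL38 and MRPS31 at the ends, and MRPS24 rests on 5 to 14 counts per library.

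The interaction asks whether both drugs together changed a gene by more or less than the sum of their separate changes on the log2 scale. In edgeR no member and no gene passed (0% of all tested genes), and 3 members had an unadjusted p under 0.05, compared with 2 members in DESeq2, where none passed either. The smallest p-values belonged to MRPS31 (-0.35, 95% interval -0.65 to -0.06, adjusted p = 0.427), MRPL33 (0.18, interval -0.02 to 0.39, adjusted p = 0.542) and MRPS10 (-0.19, interval -0.41 to 0.03, adjusted p = 0.543). The intervals take the SE and a t distribution with the 4 residual degrees of freedom. The test also uses information shared across genes, so that the intervals are wider than its p-values imply. These intervals do not show that the changes simply added up. MRPL33, a conserved large subunit protein, had 57.2 and 59.6 CPM in untreated cells, 58.6 and 56.01 with indisulam, 53.4 and 53.6 with SPHINX31 and 59.2 and 60.1 in the combination, with the SPHINX31 libraries lowest.

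Together the members took 0.406% and 0.410% of the counts on genes in the untreated libraries and 0.434% and 0.449% in the indisulam libraries. The shares were 0.417% and 0.406% with SPHINX31 and 0.443% and 0.451% in the combination, so that all 4 libraries with indisulam were above all 4 without it. The cytosolic ribosomal protein genes moved in the same direction, from 5.998% and 6.05% in untreated cells to 6.46% and 6.76% with indisulam. Of these 84 tested genes, 39 rose and 3 fell with indisulam, with a median log2 fold change of 0.13, and 68 rose and 2 fell in the combination versus SPHINX31. Of the 80 tested nuclear subunits of oxidative phosphorylation, 20 rose and 9 fell with indisulam, and no difference between these lists was tested. All of these values are relative to the other RNA in a library, so that a change in RNA per cell cannot be told apart from a change in the rest of the RNA.

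A list of 50 further genes of mitochondrial translation, including subunits with other names, assembly factors, translation factors and both mitochondrial rRNAs, was counted in the same way. Of 49 tested, 13 rose and 8 fell with indisulam, 14 rose and 11 fell in the combination versus untreated, and 11 rose and 11 fell in the combination versus SPHINX31. In the combination versus untreated, scaling by total counts gave 19 higher and 9 lower, DESeq2 9 and 11, and leaving out untreated replicate 1 gave 6 and 8. With indisulam alone, 6 were higher and 7 lower without untreated replicate 1. The difference between this list and the members was not tested. With SPHINX31 alone 2 rose and 2 fell, and in the combination versus indisulam 3 fell. MRM2 was not tested because of low counts. In either direction 42.9%, 51.0% and 44.9% passed with indisulam, in the combination versus untreated and in the combination versus SPHINX31, near the 43.7%, 50% and 49.9% of all tested genes.

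Translation factors held the largest changes. GUF1, a GTPase related to bacterial LepA that acts on the mitochondrial ribosome, had 38.0 and 41.0 CPM in untreated cells, 20.6 and 18.8 with indisulam, 39.6 and 42.0 with SPHINX31 and 15.3 and 15.5 in the combination. The libraries with indisulam lay below 21 CPM and those without it above 37. It fell by 1.00 on the log2 scale with indisulam (SE 0.0682, adjusted p = 1.30e-07) and by 0.36 more in the combination versus indisulam (SE 0.0719, adjusted p = 0.00906). MRRF, the ribosome recycling factor, had 60.4 and 63.2 CPM in untreated cells, 96.1 and 96.4 with indisulam, 62.3 and 63.9 with SPHINX31 and 97.3 and 101 in the combination. It rose by 0.64 with indisulam (SE 0.0511, adjusted p = 5.75e-07), and the libraries with and without indisulam did not overlap. MTFMT, which formylates the initiator methionine on its tRNA, fell by 0.41 with indisulam (adjusted p = 0.000874) and by 0.57 in the combination versus untreated.

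Assembly factors changed in both directions. TFB1M, which methylates the rRNA of the small subunit, fell by 0.45 with indisulam (adjusted p = 0.00154) and by 0.52 in the combination versus untreated. RPUSD4, a pseudouridine synthase needed for the large subunit, rose by 0.44 (adjusted p = 8.34e-05) and by 0.55. NOA1, a GTPase of small subunit assembly, rose by 0.38 and by 0.50.

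The mitochondrial rRNAs were measured in polyadenylated RNA and so reflect the captured part only. MT-RNR1, the rRNA of the small subunit, had 559 and 485 CPM in untreated cells, 693 and 726 with indisulam, 429 and 437 with SPHINX31 and 590 and 473 in the combination. It was highest with indisulam, where it rose by 0.44 (adjusted p = 0.00101), and the combination fell below indisulam by 0.42 (adjusted p = 0.0102). MT-RNR2, the rRNA of the large subunit, fell by 0.30 with SPHINX31 (adjusted p = 0.0170), by 0.19 in the combination versus untreated (adjusted p = 0.0404) and by 0.32 in the combination versus indisulam (adjusted p = 0.0139). With indisulam alone it changed by 0.14 and did not pass (adjusted p = 0.132).

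The members share short, simple gene structures. Their canonical transcripts have a median of 5 exons and 1242 bases, compared with 9 exons and 3364 bases in tested protein-coding genes. Their introns add up to a median of 7331 bases, compared with 24734.5. GC content was alike, with medians of 48.2% and 48.6%. Across the 77 members, the log2 fold change with indisulam had a Spearman correlation of -0.29 with GC content, 0.23 with intron length and -0.02 with exon number, against -0.09, -0.10 and -0.15 across protein-coding genes. These are descriptions across genes within the same libraries. The 2 indisulam libraries differed in some GC-rich members, such as MRPL41 and MRPS12, and the part of this in the correlation with GC content was not tested.

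In 26 members the start lies within 1000 bases of the start of a gene on the other strand, head to head, and 25 of them had a tested neighbour. MRPL46 and MRPS11 face each other over 320 bases. With indisulam MRPL46 rose, while MRPS11 changed by -0.08 and did not pass (adjusted p = 0.317). Of the 25 members with a tested neighbour 13 passed, and of the neighbours 8 rose and 6 fell, where 43.7% of all tested genes passed. Both genes passed in 9 cases, 3 in the same direction and 6 in opposite ones. Whether this differs from other pairs of genes was not tested. MRPL30 rose by 0.40 next to MITD1, which fell by 0.42, and MRPL51 rose by 0.22 next to NCAPD2, a condensin subunit, which fell by 0.53. MRPS18B fell by 0.23 while PPP1R10, a regulator of protein phosphatase, rose by 0.35. MRPL43 and its neighbour TWNK, the mitochondrial DNA helicase, rose by 0.26 and 0.20.

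Promoters are shown for 2 members that hold a motif and for MRPL1 and MRPS31, described above. Sequences of 250 bases before the start were taken from RefSeq on GRCh38.p14 and matched 69 of the 78 members. Both strands were searched for the letters of binding motifs of factors known to control nuclear genes of mitochondria. The ETS motif, CCGGAAGT, was present in 9 of 69 members (13.0%), 6.70% of tested protein-coding genes and 3.64% of all promoters in the table. It was in 5 of 27 members that rose with indisulam, 0 of 8 that fell and 3 of 33 that did not pass. The NRF1 motif, GCGCATGCG, was in MRPL17, MRPL22 and MRPS18C, 4.35% of members, and in 2.95% of tested protein-coding genes and 1.78% of all promoters. The YY1 motif, AAGATGGCG, was in MRPL32, MRPL36 and MRPL52, again 4.35% of members, and in 0.977% and 0.641% of those sets. Of the genes with the NRF1 motif, MRPS18C rose with indisulam and MRPL17 and MRPL22 did not, while those with the YY1 motif rose. For reference, 37.7% of members and 20.1% of all tested genes rose. No comparison of the motif sets was tested. A match is only a match of letters. The promoters printed 5′ to 3′ on the strand of the gene are those of MRPL20 at chr1:1407294-1407543 (minus strand, ETS motif in capitals), MRPL17 at chr11:6683341-6683590 (minus strand, NRF1 motifs in capitals), MRPL1 at chr4:77862580-77862829 (plus strand) and MRPS31 at chr13:40771191-40771440 (minus strand), the last 2 with none of the motifs.
MRPL20: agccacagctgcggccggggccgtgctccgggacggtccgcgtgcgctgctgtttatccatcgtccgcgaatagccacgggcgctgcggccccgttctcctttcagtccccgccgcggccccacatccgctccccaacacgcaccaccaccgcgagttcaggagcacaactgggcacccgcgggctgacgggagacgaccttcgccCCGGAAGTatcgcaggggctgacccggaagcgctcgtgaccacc
MRPL17: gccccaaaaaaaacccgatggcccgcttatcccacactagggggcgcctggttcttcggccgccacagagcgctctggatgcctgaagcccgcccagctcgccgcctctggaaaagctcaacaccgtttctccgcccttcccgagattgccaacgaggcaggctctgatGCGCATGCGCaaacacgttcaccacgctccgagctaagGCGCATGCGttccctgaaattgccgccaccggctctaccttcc
MRPL1: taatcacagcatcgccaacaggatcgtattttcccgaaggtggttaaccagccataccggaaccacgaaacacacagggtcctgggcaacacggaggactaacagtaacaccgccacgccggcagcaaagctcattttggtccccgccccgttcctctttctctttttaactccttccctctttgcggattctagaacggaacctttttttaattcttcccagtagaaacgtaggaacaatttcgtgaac
MRPS31: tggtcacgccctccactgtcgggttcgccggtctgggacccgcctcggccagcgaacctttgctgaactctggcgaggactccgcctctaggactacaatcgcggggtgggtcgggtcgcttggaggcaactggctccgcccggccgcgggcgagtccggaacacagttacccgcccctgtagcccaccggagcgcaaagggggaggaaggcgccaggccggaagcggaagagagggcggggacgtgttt

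The ETS motif in MRPL20 starts 44 bases before the start of the gene and the NRF1 motifs in MRPL17 start 81 and 43 bases before it, the first of them matching on both strands with an overlap. MRPL20, a large subunit protein with a bacterial counterpart, rose by 0.22 with indisulam (adjusted p = 0.00413) and by 0.31 in the combination versus SPHINX31 (adjusted p = 0.000245). MRPL17 changed by -0.07 with indisulam and did not pass (adjusted p = 0.314), and fell by 0.21 in the combination versus SPHINX31 (adjusted p = 0.00720). MRPL1 rose and MRPS31 fell in both comparisons, as given above.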

How the data were processed

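RNA from A549 cells was sequenced by the authors as stranded, polyadenylated libraries, and the deposited values are raw counts of reads per Ensembl gene, without normalization. The submitters' processing notes name HISAT2 2.2.1, HTSeq and GRCh38, and the strand setting and annotation of the counts are not given in the sources used here. Gene IDs were matched to GENCODE release 44 (60370 of 60624), which also gave gene structures. Genes received 83.0% to 86.0% of the recorded reads. The rest (no feature, ambiguous or not unique) stayed out of library sizes.

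The labelled treatment set the 4 groups of 2 libraries. Libraries of a group differed beyond sampling noise (chi-square over its degrees of freedom, 6.59 to 10.7) and were kept as replicates. Genes were filtered with filterByExpr, scaled with TMM and tested with edgeR 4.0.16 (quasi-likelihood, all 8 libraries in 1 fit, 4 residual degrees of freedom, R 4.3.3), for 5 pairwise comparisons and the interaction. Benjamini-Hochberg adjustment was over 18661 genes. Standard errors (SE) are the absolute log2 fold change divided by the square root of F. The fit was tested on simulated data. Levels between genes are CPM per kilobase of merged exon. Summaries used Python 3.11.15 with pandas 2.3.3.

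Named genes are, for each pairwise comparison, up to 5 members higher and 5 lower with the largest change among those that passed, the 3 smallest interaction p-values, the 3 MRPS18 genes, the 3 highest and 3 lowest levels, members that failed the filter, the same rule with 3 for the mitochondrial translation list in 2 comparisons with untreated cells, both mitochondrial rRNAs, RBM39 and SRPK1. SRPK1 mRNA changed by -0.33 with indisulam and by -0.04 with SPHINX31. Head-to-head neighbours, promoters, motifs and genes named in lists of calls fall outside it and were chosen after their values were seen. Members and lists were chosen with earlier results of these data known. Alternatives were other scalings, filters, DESeq2 1.42.0, GC correction (50 bins), a replicate block, subsets of libraries and an adjusted p under 0.1. 1 marker of another cell type is not reported here.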

Additional observations from a re-analysis of the deposited data

Results flagged for a closer look

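Some genes named after members are no protein-coding genes and were not counted as members. 86 such genes are in the tables, 55 of them without a count, and 6 passed the filter. 3 were higher than in untreated cells in edgeR's quasi-likelihood test.

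MRPS31P4, a transcribed pseudogene of MRPS31 on chromosome 13, had 0.518 and 0.486 CPM in untreated cells, 1.46 and 1.28 with indisulam, 1.14 and 0.632 with SPHINX31, and 1.70 and 1.85 in the combination. The log2 fold change was 1.45 with indisulam (adjusted p = 0.000565) and 1.82 in the combination (adjusted p = 4.46e-05), while MRPS31 itself changed by -0.49 and -0.82. MRPS31P5, also on chromosome 13, had 0.259 and 0.218 CPM in untreated cells and 0.688 and 0.549 with indisulam, a log2 fold change of 1.37 (adjusted p = 0.00187). In the combination it had 0.437 and 0.384 CPM and did not pass (0.78, adjusted p = 0.0536). Both pseudogenes stayed below 2 CPM, whereas MRPS31 lay between 8.75 and 16.3 CPM.

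MRPS30-DT, a noncoding gene that starts next to MRPS30, had 0.485 and 0.436 CPM in untreated cells and 0.722 and 0.844 with indisulam. It rose by 0.76 with indisulam (adjusted p = 0.0221) and by 0.91 in the combination (adjusted p = 0.00594).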

How the results depend on the processing

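Counts of members that passed with indisulam, in the combination versus untreated and in the combination versus SPHINX31 stayed within 1.5 times the reported count under every alternative except leaving out untreated replicate 1 (combination versus untreated, 23). Leaving out 1 library gave 26 to 38, 23 to 39 and 29 to 40 members. For SPHINX31 versus untreated, 3 members became 1 with DESeq2, 9 with GC correction, 8 with replicate block and GC correction, 6 at an adjusted p under 0.1, and 0 to 3 without 1 library. For the combination versus indisulam, 1 became 3, 2 and 3 with GC correction, with block and GC correction and at 0.1, and 0 to 3 without 1 library. In the mitochondrial translation list this comparison gave 3, which became 6, 5 and 7 in the same order and 0 to 5 without 1 library. Without 1 library the list gave 13 to 22 with indisulam (lowest without untreated replicate 1), 0 to 5 with SPHINX31, and 14 to 26 in the combination versus untreated. Its low values there came without untreated replicate 1 (14), combination replicate 2 (15) and untreated replicate 2 (16). The interaction gave 0 in every setting.

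Of 890 named fold changes under alternatives, 857 stayed on the same side of the threshold, 33 fell short of it and none reversed after passing. The share that stayed is no measure of stability, because part of it was fixed in advance or nearly so. The alternatives include the looser threshold on the adjusted p, at which a change that had passed could not fall short. They also include fits without a library of a group outside the comparison, where the fold change could hardly move. Some of the named changes had not passed in the main fit. The levels of named members per longest transcript were 1.05 (MRPS34) to 2.46 (MRPL38) times those per merged exon.

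Replicate numbers are not stated to pair libraries, and deviations of same-numbered libraries correlated from -0.609 (untreated and indisulam) to 0.482 (untreated and SPHINX31). With a replicate block 36 members passed with indisulam, 2 with SPHINX31, 37 in the combination versus untreated, 1 versus indisulam and 39 versus SPHINX31. With the indisulam numbers exchanged in the block, a choice made after seeing the data, these counts were 43, 7, 44, 3 and 45, and 8 genes of the translation list passed in the combination versus indisulam.

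With 2 technical replicates a group, the SE was 0.0458 for MRPL51 (at least 7862 counts) in SPHINX31 versus untreated. For MRPL38 (at least 50) it was 0.230 in indisulam versus untreated, a different comparison.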

Other observations

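MRPL20-AS1, an antisense gene at MRPL20, had 15.3 and 13.7 CPM in untreated cells and 11.0 and 11.0 with indisulam. It fell by 0.40 on the log2 scale with indisulam (adjusted p = 0.000978, edgeR), where MRPL20 rose by 0.22, and by 0.31 in the combination versus untreated (adjusted p = 0.00426). The libraries are stranded, but whether the counting used the strand is not given in the sources used here.

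MRPL42P1, a processed pseudogene of MRPL42, had 0.178 and 0.151 CPM in untreated cells and 0.0344 and 0.0196 with indisulam, a log2 fold change of -2.49 (adjusted p = 0.0110) on 60 counts over all 8 libraries. In the combination it had 0.0875 and 0.192 CPM and changed by -0.23 compared with untreated cells (adjusted p = 0.718).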
